A study of Mus musculus with 4 samples.

Results

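The Mmp gene cluster of mouse chromosome 9 was described here from its accessible chromatin in chondrocytes before and after long culture. It consisted of 10 matrix metalloproteinase genes, in the order Mmp13, Mmp12, Mmp1b, Mmp3, Mmp1a, Mmp10, Mmp8, Mmp27, Mmp20 and Mmp7, which spanned 427 kb in the RefSeq annotation of GRCm38. All ATAC-seq peaks from 50 kb before Mmp13 to 50 kb after Mmp7 were taken (chr9:7222514-7749585, 527 kb), which gave 78 of the 455071 peaks of the study. ATAC-seq cuts and tags open DNA with the Tn5 transposase, so that a peak marks a position with more tags than its surroundings. The cells were chondrocytes from knee cartilage of C57BL/6 mice in their first postnatal days, without genetic change, grown as attached cells in DMEM/F12 medium with fetal bovine serum. P0 (passage 0) cells were primary cells collected within a day of plating and P8 (passage 8) cells had been passaged after each doubling, which is a model of dedifferentiation in culture. There were 2 libraries for each passage, called library A and library B. The sources used here do not say whether the libraries of a passage came from separate animals or cultures, so tests across them measure only the spread between these libraries, which may be technical.

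Matrix metalloproteinases are zinc-dependent proteases, most of them secreted as inactive precursors, that cut the proteins of the extracellular matrix. Mmp13 is the main collagenase of cartilage, made by hypertrophic chondrocytes and in osteoarthritis, where it cuts type II collagen. Mmp8, Mmp1a and Mmp1b are further collagenases, Mmp3 and Mmp10 are the stromelysins, Mmp12 is the macrophage elastase, Mmp7 is matrilysin and Mmp20 is the enamel protease of ameloblasts. Transcription of several of these genes is known to be driven by AP-1, a dimer of Fos and Jun proteins, close to the start of the gene. AP-1 binds TGACTCA or TGAGTCA, and the pattern searched here, TGANTCA, allowed any middle base (N) and was wider.

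A peak covered those letters just upstream of the start at 4 of the 10 genes, and these promoters are therefore shown. The 150 bases before the start are printed 5′ to 3′ as the gene is read, from RefSeq (GRCm38.p6), with TGANTCA in capitals.
Mmp13, chr9:7272364-7272513, plus strand: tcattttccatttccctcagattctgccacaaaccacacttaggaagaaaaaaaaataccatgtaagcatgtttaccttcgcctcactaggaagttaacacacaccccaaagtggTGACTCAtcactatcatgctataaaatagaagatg
Mmp3, chr9:7445672-7445821, plus strand: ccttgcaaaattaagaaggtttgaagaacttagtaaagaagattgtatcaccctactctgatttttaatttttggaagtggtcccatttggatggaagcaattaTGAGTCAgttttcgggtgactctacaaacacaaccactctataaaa
Mmp1a, chr9:7463991-7464140, plus strand: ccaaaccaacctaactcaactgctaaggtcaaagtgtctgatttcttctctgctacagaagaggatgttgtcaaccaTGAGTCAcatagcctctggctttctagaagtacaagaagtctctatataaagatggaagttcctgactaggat
Mmp10, chr9:7502192-7502341, plus strand: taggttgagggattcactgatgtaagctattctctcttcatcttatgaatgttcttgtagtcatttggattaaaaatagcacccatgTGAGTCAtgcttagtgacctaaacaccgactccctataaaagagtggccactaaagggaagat
The following promoters are shown for contrast, since Mmp1b and Mmp7 held the same letters without a peak in any library, and Mmp27 had a peak just after its start in 3 libraries without the letters.
Mmp1b, chr9:7388027-7388176, minus strand: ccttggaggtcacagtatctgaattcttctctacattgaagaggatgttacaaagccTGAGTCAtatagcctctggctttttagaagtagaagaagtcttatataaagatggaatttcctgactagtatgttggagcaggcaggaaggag
Mmp7, chr9:7691940-7692089, plus strand: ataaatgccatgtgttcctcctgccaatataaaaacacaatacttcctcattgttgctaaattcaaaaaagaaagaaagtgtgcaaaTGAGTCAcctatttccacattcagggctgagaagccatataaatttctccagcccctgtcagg
Mmp27, chr9:7571246-7571395, plus strand: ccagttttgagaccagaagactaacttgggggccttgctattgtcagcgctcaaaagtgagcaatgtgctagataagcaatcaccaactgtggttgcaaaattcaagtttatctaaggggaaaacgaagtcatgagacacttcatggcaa

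Each library had its own depth, which sets how weak a site can still be called. The libraries held from 89610 to 145703 peaks, and the background of the peak caller per 10 kb was 194 tags in P0 A, 162 in P0 B, 140 in P8 A and 134 in P8 B. Both P0 libraries were thus the deeper ones, and depth and passage cannot be told apart. No peak in any library had fewer than 6 tags at its summit, and a site without a peak was therefore below detection at this depth and not shown to be closed. Of 8 chondrocyte markers, 8 had a peak within 1 kb of a gene end in both P0 libraries and 7 in both P8 libraries, Matn1 being the one without. Among 7 leukocyte markers, Spi1 had such a peak in every library, Cd68 in P0 A and P0 B alone, and Laptm5 in P0 B and P8 A. Ptprc, Csf1r, Adgre1 and Itgam had none in any library. The number of leukocyte markers with such a peak was thus 2, 3, 2 and 1 in P0 A, P0 B, P8 A and P8 B. Of 6 fibroblast markers, 6, 6, 5 and 4 had one in the same order, of 4 endothelial markers 2, 2, 1 and 1, and of 5 epithelial markers 3, 2, 0 and 0. The 6 neutrophil markers had none in any library. Of 4 ameloblast markers, Klk4 had a peak in both P0 libraries, at a fold enrichment of 5.14 and 6.23, and none at P8, while Amelx, Enam and Ambn had none in any library.

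The cluster held fewer peaks at P8 but a slightly larger share of them. The window had 24 peaks in P0 A, 19 in P0 B, 17 in P8 A and 18 in P8 B, that is 21.5 ± 3.54 and 17.5 ± 0.707 (mean ± SD, n = 2 each). The P0 mean was 1.23 times the P8 mean, while the whole libraries differed 1.40 times. The share of a library's peaks that lay in the window came to 0.0165% in P0 A, 0.0158% in P0 B, 0.0190% in P8 A and 0.0180% in P8 B. Both P8 values lay above both P0 values, for which an exact two-sided permutation test gave p = 0.333, the lowest it can reach with 2 against 2. The window was poorer in peaks than its chromosome in every library, with 45.5, 36.0, 32.3 and 34.2 peaks per Mb in P0 A, P0 B, P8 A and P8 B against 62.0, 51.2, 38.3 and 43.6 over chromosome 9.

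Overlapping peaks of the 4 libraries merged into 31 sites. A peak in all 4 libraries was found at 11 sites (35.5%), where the share over the 172311 sites of the genome was 32.4%. There were 8 sites with a peak at P0 only (25.8%, against 40.2% over the genome) and 6 with a peak at P8 only (19.4% against 11.7%). All 6 P8-only sites were called in a single P8 library, and 0 sites were shared by the P8 libraries without a P0 peak, a pattern of 1.84% of sites over the genome. The reverse, a peak in each P0 library and none at P8, was seen at 3 sites, 9.68% of the window against 17.0% over the genome. The remaining 6 sites had peaks at both passages but not in every library. The 11 sites called in 1 library were weak, with a fold enrichment from 3.20 to 5.50 (median 3.96) and 6 to 13 tags at the summit. Fold enrichment is the number of tags at the summit over the local background, with 1 tag added to both. Counts of sites called at P0 only or P8 only depended on single libraries and on depth. Without P0 library A, 4 in place of 8 P0-only sites were left. Without either P8 library A or P8 library B, 3 in place of 6 P8-only sites were left. With every library scaled to the lowest background (matched depth), 6 sites were called at P0 only and 6 at P8 only.

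**Figure D1:**
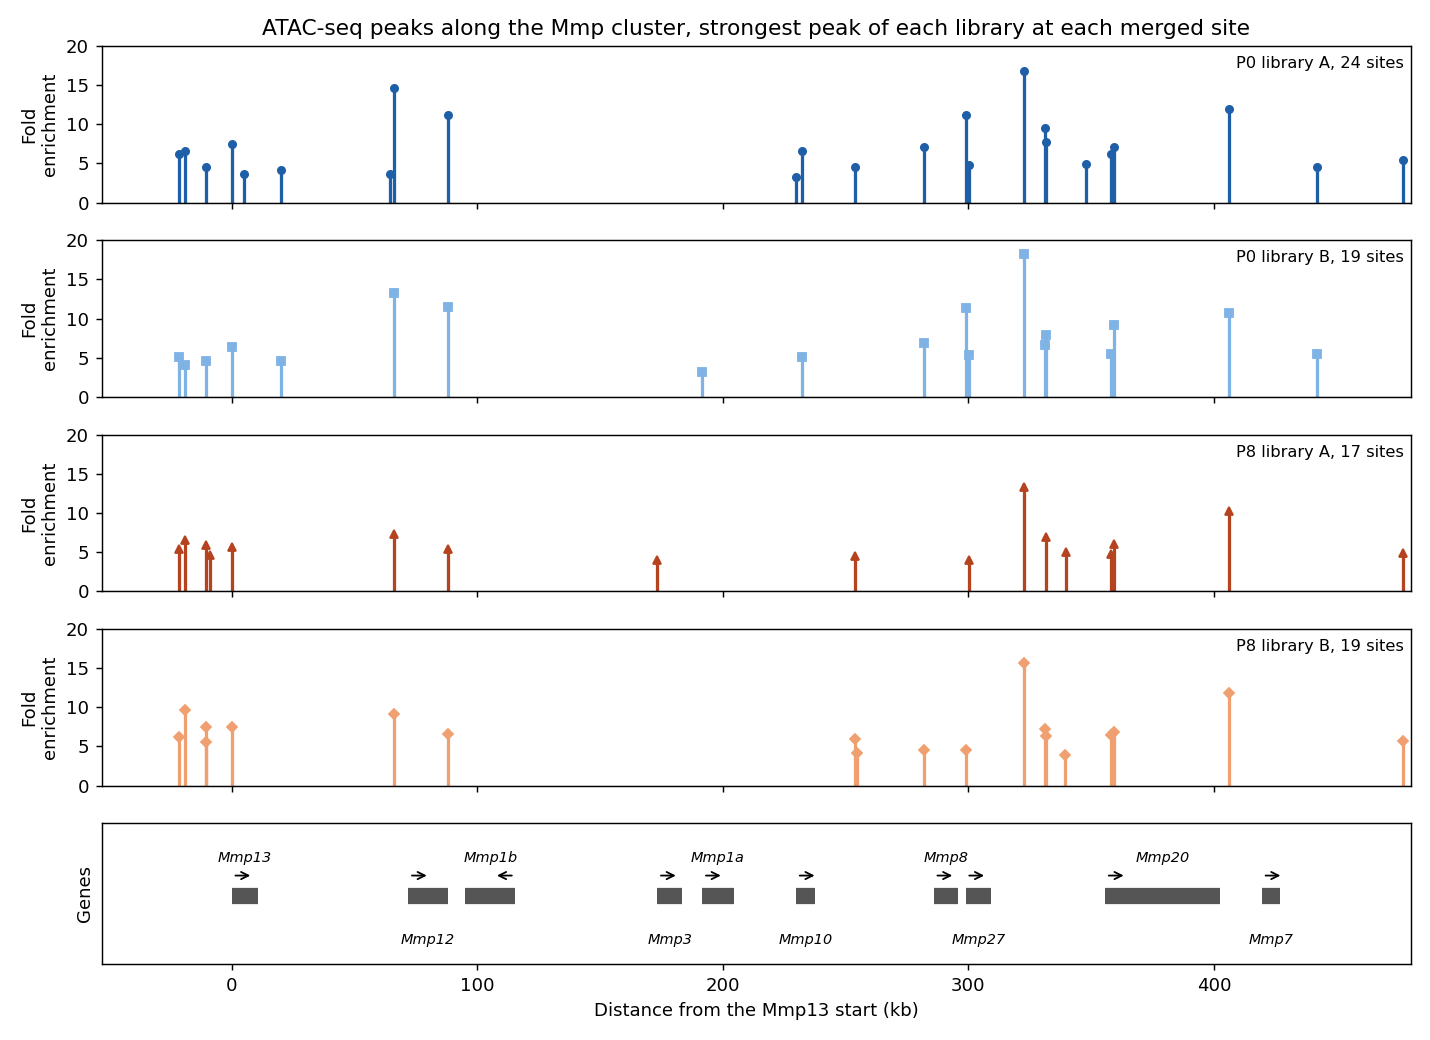
Fold enrichment of the strongest peak at each merged site, 1 panel for each library, against the distance from the Mmp13 start in kb, with the 10 genes and their direction of transcription below. The stretch over Mmp1b is empty in all 4 panels, and the tallest peak of each panel stands between Mmp27 and Mmp20.

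Peaks along the cluster gathered around Mmp13 and from Mmp8 to Mmp20. The longest stretch without a peak in any library ran for 84.9 kb from just after Mmp12 to the Mmp3 start (chr9:7360867-7445739) and held all of Mmp1b. The next longest were 46.1 kb inside and after Mmp20, 44.5 kb between Mmp13 and Mmp12, and 38.2 kb holding Mmp1a. By the nearest member gene, 8 sites fell to Mmp13, 6 to Mmp20, 5 to Mmp27, 4 to Mmp10, 3 to Mmp12, 2 to Mmp7, 1 each to Mmp3, Mmp1a and Mmp8, and 0 to Mmp1b.

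Among the 10 starts, that of Mmp13 was accessible in every library. A peak within 1 kb of the start was found in all 4 libraries for 1 of 10 genes, whereas 59.8% of 17492 protein-coding genes with a listed promoter had one in all 4. No library had a peak at the starts of Mmp12, Mmp1b, Mmp8, Mmp20 and Mmp7, 5 of 10 genes against 31.6% over the genome. A peak in a single library was seen at 3 of 10 genes (Mmp3, Mmp1a and Mmp10), against 1.97% over the genome. At matched depth, with every library scaled to the lowest background, the peaks at Mmp1a and Mmp10 no longer passed, and 3 of 10 starts had a peak in any library in place of 5. Within 3 kb of a start, 3 of 10 genes had a peak in all 4 libraries, with Mmp20 and Mmp27 added to Mmp13.

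**Figure D2:**
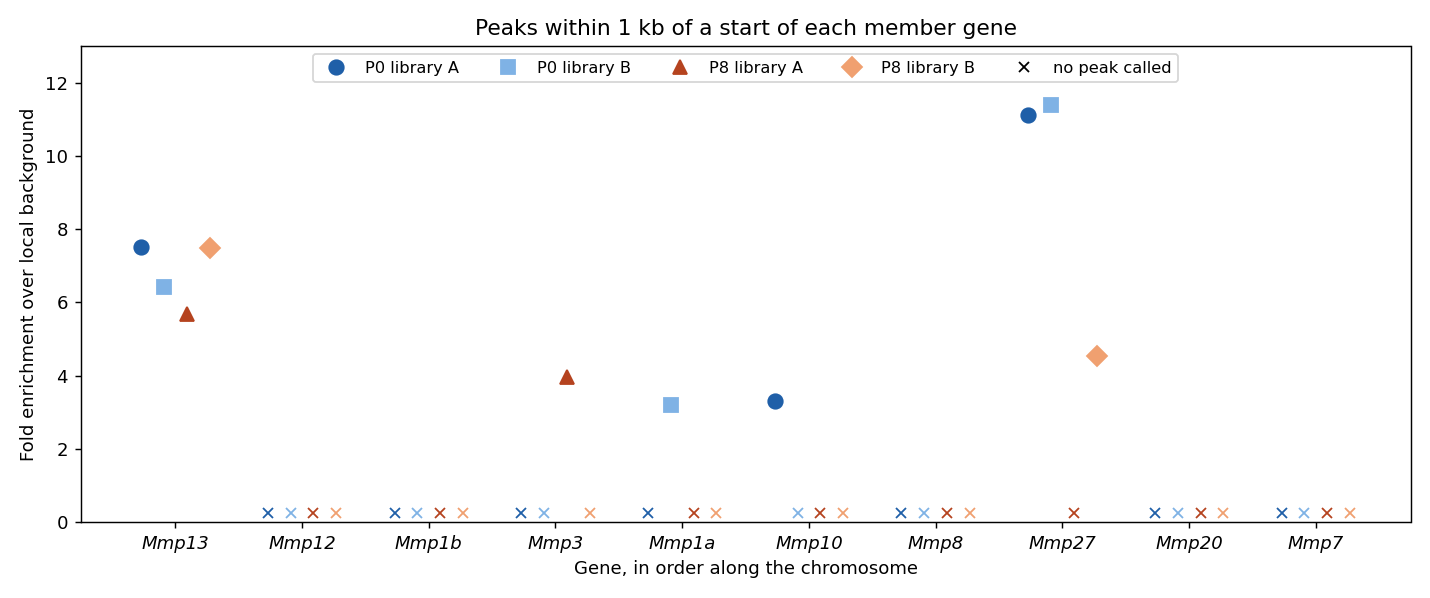
Fold enrichment of the strongest peak within 1 kb of a start of each gene, in order along the chromosome, with 1 symbol for each library and a cross where no peak was called. Mmp13 has a symbol from every library between 5.69 and 7.52, Mmp27 from 3 libraries, Mmp3, Mmp1a and Mmp10 from 1 each, and the other genes from none.

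The Mmp13 start lay inside a site of 323 bp (chr9:7272337-7272659). Its fold enrichment was 7.52 in P0 A, 6.41 in P0 B, 5.69 in P8 A and 7.49 in P8 B, from 18, 13, 12 and 16 tags at the summit. The passages overlapped. After centring each library on its median over all shared sites, the log2 difference of P8 minus P0 was 0.18 (SE 0.20), which did not pass the test (limma, Benjamini-Hochberg adjusted p = 0.594). The TGACTCA printed above began 35 bases before the start, and the 4 summits lay 4, 15, 28 and 5 bp from it in P0 A, P0 B, P8 A and P8 B. A RUNX sequence (TGTGGT on either strand) began 118 bases before the start, within the same site. Runx2 is known to regulate Mmp13 in hypertrophic chondrocytes.

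3 further sites held in all 4 libraries lay upstream of Mmp13, between it and the edge of the window. The site 19.1 kb upstream (chr9:7253348-7253573) had a fold enrichment of 6.62 in P0 A, 4.12 in P0 B, 6.59 in P8 A and 9.69 in P8 B, from 15, 8, 13 and 20 tags. P0 A and P8 A were level here before centring, and P8 B stood highest. The site 10.7 kb upstream (chr9:7261630-7262081), inside the long non-coding RNA gene Gm31639, had 4.55, 4.58, 5.93 and 7.50 in the same order, so both P8 libraries were above both P0 libraries. The site 21.6 kb upstream (chr9:7250673-7251124), in no annotated gene, had 6.21, 5.03, 5.36 and 6.21.

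Both of the nearer ones rose at P8 relative to the other accessible sites. limma, fitted over the 55890 sites of the genome with a peak in all 4 libraries, called 6.20% of them higher and 3.74% lower at P8 at an adjusted p under 0.05. In the window 2 of 11 sites were called higher and 2 of 11 lower. The site 19.1 kb upstream of Mmp13 was higher by a log2 difference of 0.88 (SE 0.23, adjusted p = 0.0224) and the one at 10.7 kb by 0.82 (SE 0.20, adjusted p = 0.0157), while the one at 21.6 kb had 0.32 (SE 0.20, adjusted p = 0.333). These calls depended on the scaling, and the size of the difference at 19.1 kb also on single libraries. Without centring, the log2 differences were 0.61 (adjusted p = 0.139) and 0.55 (adjusted p = 0.0884), and over the genome 601 sites were then higher and 6571 lower in place of 3467 and 2090, because the median difference of all shared sites went from 0.068 to −0.20. With quantile normalization both calls were lost (adjusted p = 0.0641 at 19.1 kb and 0.0596 at 10.7 kb), and with pileup over background without an added tag, an alternative chosen after seeing the data, that at 19.1 kb was lost (adjusted p = 0.0884 centred and 0.0881 not centred). With 1 library left out, the log2 difference at 19.1 kb ran from 0.56 (without P0 library B) to 1.21 (without P0 library A). That at 10.7 kb ran from 0.72 to 0.91. A passage then held 1 library, so only the size is given.

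The other sites nearest to Mmp13 were weak. A pair of sites in Gm31639, 10.3 and 8.9 kb upstream of the start, were called in 1 P8 library each, with a fold enrichment of 5.50 in P8 B and 4.58 in P8 A. A site 19.8 kb downstream of the start (chr9:7292268-7292440) was held at P0 alone, at 4.14 in P0 A and 4.58 in P0 B. A site within the gene was called in P0 library A alone, at 3.64.

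**Figure D3:**
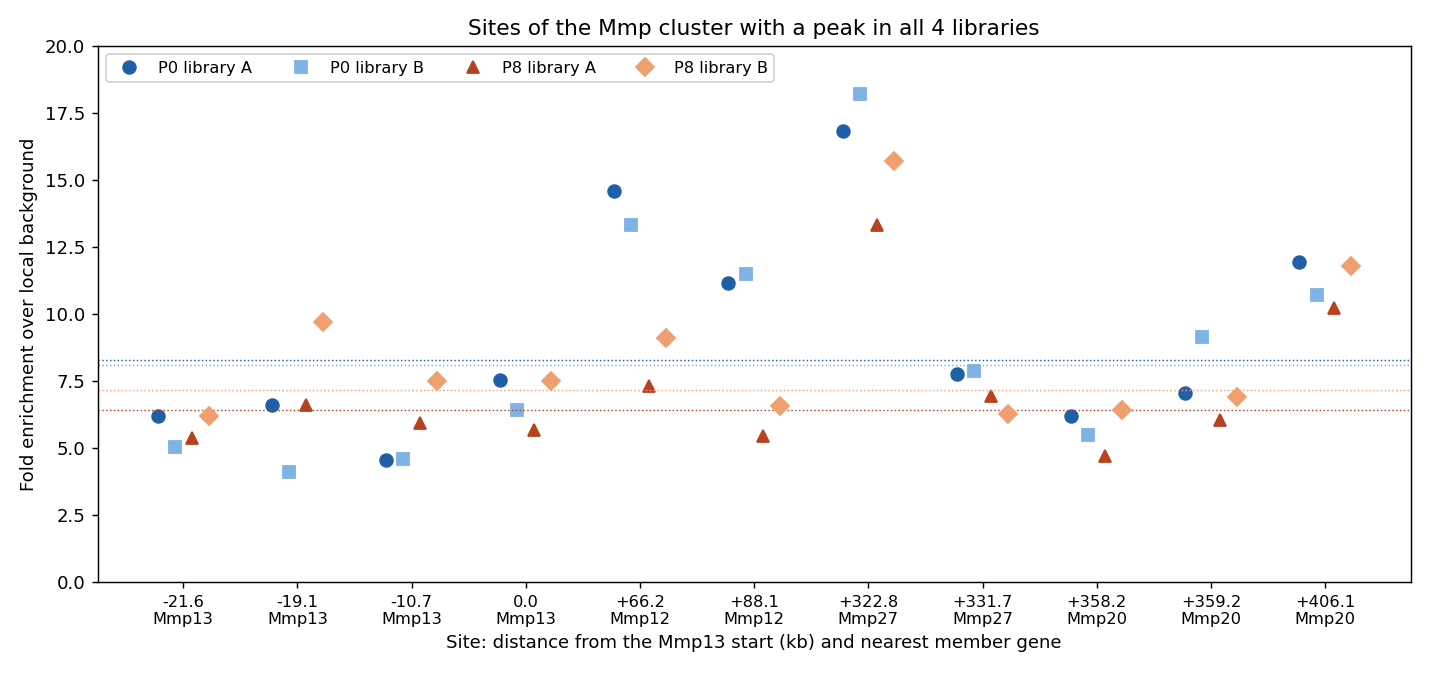
Fold enrichment in each library (symbols) at the 11 sites with a peak in all 4 libraries, placed by distance from the Mmp13 start in kb and nearest gene, with the median of each library over all 55890 shared sites as a dotted line. The P0 symbols stand above both P8 symbols at the pair of Mmp12 sites, and both P8 symbols stand above both P0 symbols at the site 10.7 kb upstream of Mmp13.

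Of the other collagenase genes, Mmp1a had 1 weak peak at its start and Mmp8 and Mmp1b had none. The Mmp1a peak (chr9:7463970-7464078) was called in P0 library B alone, at a fold enrichment of 3.20 from 6 tags, which is the lowest of the window, and its summit lay 57 bp from the TGAGTCA that began 73 bases before the start. Mmp1b had no peak inside the gene, at its start or within reach of any site nearest to it. The promoters of the pair were 74.7% identical (245 of 328 aligned positions over 300 bases each). How reads with several placements were treated is not given in the sources used here, and whether this touched the pair was not tested. The single site nearest to Mmp8 lay 3.9 kb upstream (chr9:7554426-7554688), with a fold enrichment of 7.04 in P0 A, 6.87 in P0 B and 4.55 in P8 B and no peak in P8 A.

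The stromelysin genes had few peaks as well. The only peak near Mmp3, a gene strongly induced by inflammatory cytokines, lay at its start in P8 library A (chr9:7445740-7445812), at a fold enrichment of 3.96 from 7 tags, with its summit 21 bp from the TGAGTCA shown above. At Mmp10, P0 library A alone had a peak at the start (chr9:7502252-7502324), at 3.31 from 7 tags, with the summit 17 bp from its TGAGTCA. Inside Mmp10, 2.4 kb after the start, a site was held at P0 alone, at 6.62 in P0 A and 5.03 in P0 B (chr9:7504691-7504877). Its P0 A value was the highest at any of the 3 sites with this pattern. Farther downstream, 24.1 kb from the start, a site was held in P0 A, P8 A and P8 B at 4.55, 4.48 and 5.90, and a neighbouring one in P8 B alone at 4.10.

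The pair of strong sites at Mmp12 were lower at P8. The site 5.6 kb upstream of the gene (chr9:7338430-7339085) had a fold enrichment of 14.6 in P0 A, 13.3 in P0 B, 7.31 in P8 A and 9.10 in P8 B, from 49, 40, 14 and 18 tags. The site over the end of the gene (chr9:7360276-7360866) had 11.2, 11.5, 5.44 and 6.57, from 26, 25, 10 and 12 tags. Of its peaks only that of P0 A reached into the gene, and the summits of all libraries lay beyond the end. At both sites every P0 library stood above every P8 library, before and after centring. The log2 differences were −0.50 (SE 0.15, adjusted p = 0.0454) and −0.65 (SE 0.18, adjusted p = 0.0257) with limma. Without centring both calls held, at −0.77 and −0.92. With quantile normalization (adjusted p = 0.0590) or without a mean trend (adjusted p = 0.0827) the upstream call was lost, as it was with pileup over background without an added tag, at −0.33 centred (adjusted p = 0.259) and −0.41 not centred (adjusted p = 0.218). With pileup in place of fold enrichment the call at the end of the gene was lost (adjusted p = 0.0620). With 1 library left out, the log2 difference ran from −0.58 to −0.42 at the upstream site and from −0.71 to −0.59 at the end of the gene. A passage then held 1 library, so only the size is given. Mmp12 is known from macrophages. Summed fold enrichment over the 7 leukocyte markers came to 15.5 (P0 A), 18.4 (P0 B), 14.8 (P8 A) and 9.31 (P8 B). A marker without a peak counted as 0. The sums were not centred and the P8 libraries were the shallower ones, so depth and cell content cannot be told apart in them. Fibroblast markers summed to 38.5, 37.1, 25.7 and 21.0 in the same library order, and chondrocyte markers to 38.6, 43.8, 35.4 and 32.2. Endothelial, epithelial and ameloblast sums were also lower in both P8 libraries than in both P0 libraries. The neutrophil sums were 0 throughout. The part of leukocytes in the Mmp12 difference was not tested. In bulk libraries fewer cells with a site open and less opening in each cell cannot be told apart.

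**Figure D4:**
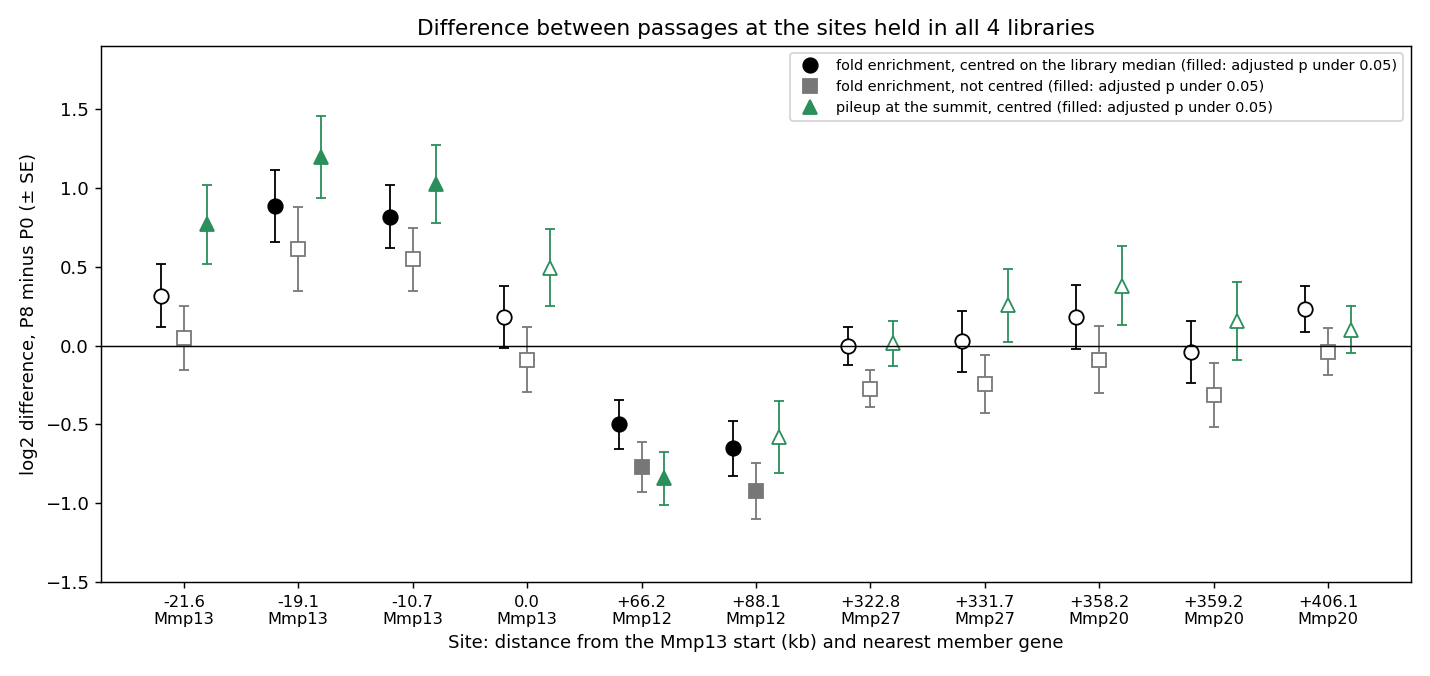
The log2 difference of P8 minus P0 (± SE from limma) at the 11 sites, for fold enrichment centred on the library median, fold enrichment without centring and pileup at the summit, with filled symbols at an adjusted p under 0.05. The Mmp12 sites lie below 0 under all 3 scalings and the sites 19.1 and 10.7 kb upstream of Mmp13 above 0.

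The groups did not overlap after centring at 6 of the 11 sites. Both P8 libraries were above both P0 libraries at 4 sites (34.1% of shared sites over the genome) and below at 2 (21.5%). The 4 were the 3 upstream of Mmp13 and the one beyond Mmp20, and the 2 were those of Mmp12. Without centring the numbers were 1 above (11.6% of shared sites over the genome) and 5 below (49.9%).

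At the strongest site of the cluster the centred difference between the passages was within its error. It lay between Mmp27 and Mmp20, 23.9 kb from the Mmp27 start (chr9:7594908-7595634), inside the long non-coding RNA gene Gm31751, and was the highest of the window in each library, at a fold enrichment of 16.8 in P0 A, 18.2 in P0 B, 13.3 in P8 A and 15.7 in P8 B. These values lay at the 99.6, 99.7, 98.7 and 99.6 percentile of all peaks of their library. The centred log2 difference was −0.0042 (SE 0.12, adjusted p = 0.988). Without centring it was −0.28 (SE 0.12, limma adjusted p = 0.137). Both P8 libraries then lay below both P0 libraries, as at 49.9% of shared sites over the genome. A pair of sites about 9 kb farther on in the same gene followed, of which chr9:7604006-7604427 had 7.78, 7.87, 6.95 and 6.28 and its neighbour at chr9:7603411-7603733 had 9.55 and 6.65 at P0, 7.23 in P8 B and no peak in P8 A.

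Mmp27 carried the tallest start peak of the cluster at P0. At P8 that of Mmp13 was taller, at 5.69 in P8 A and 7.49 in P8 B. The Mmp27 site began just after the start, within both Mmp27 and Gm31751 (chr9:7571401-7571917). It had a fold enrichment of 11.1 in P0 A and 11.4 in P0 B against 4.55 in P8 B, and no peak in P8 A. The summits fell within the gene, and none of the 300 promoter bases held TGANTCA. A second site 1.4 kb after the start had 4.83, 5.30 and 3.96 in P0 A, P0 B and P8 A and no peak in P8 B. As neither site had a peak in all 4 libraries, neither was tested.

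Mmp20, Mmp7 and the end of the cluster showed sites away from the starts. Within Mmp20, 2.4 and 3.5 kb after the start, a pair of sites were held in all 4 libraries. The first had 6.21 and 5.49 at P0 and 4.69 and 6.41 at P8, and the second had 7.04 and 9.15 at P0 and 6.06 and 6.90 at P8. Their centred log2 differences were 0.18 (SE 0.20, adjusted p = 0.611) and −0.041 (SE 0.20, adjusted p = 0.919). The widest site of the cluster, of 1105 bp (chr9:7678068-7679172), lay 3.1 kb after the end of Mmp20 inside the long non-coding RNA gene AV064505, at 11.9, 10.7, 10.2 and 11.8 in P0 A, P0 B, P8 A and P8 B, with a log2 difference of 0.23 (SE 0.15, adjusted p = 0.339). The 3 sites upstream of Mmp20 were called in 1 library each, at 3.90 in P8 B, 5.05 in P8 A and 4.97 in P0 A. Mmp7 had no peak inside the gene, and the sites nearest to it lay 14.6 kb beyond its end in both P0 libraries (4.55 and 5.49) and at the edge of the window in P0 A, P8 A and P8 B (5.38, 4.83 and 5.67). The P8 peaks of that last site began just outside the window and are not among the 78.

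The letters that mark AP-1 were common in the promoters of the cluster. In the 300 bases from 250 before to 50 after a start, TGANTCA on either strand stood in 7.81% of 32851 promoters. It stood in 8 of the 12 promoters listed for the cluster. By gene these were 8 of 10, Mmp8 and Mmp27 being without, and Mmp12 had it at the second of its 2 listed starts only. In Mmp20 the letters were TGAATCA, a match only to the wider pattern, where the other genes had TGACTCA or TGAGTCA. The share over all promoters counts such wider matches too. The RUNX letters TGTGGT stood in 16.8% of promoters and in 4 of the 12 of the cluster (4 of 10 genes). The C/EBP letters TTGCNNAA stood in 10.8% and in 6 of 12 (6 of 10 genes), and the NF-kB motif in 4.79% and in 0 of 12. The pattern TGANTCA reads the same on both strands and overlapped no other of these matches at the start peaks. The promoters come from related genes, with Mmp3 and Mmp10 57.9% identical, so the matches are not independent of each other, and matched letters do not show that a factor was bound.

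Most genes of the family outside the cluster had accessible ends. Of 13 such genes, 10 had a peak within 1 kb of a gene end in all 4 libraries, which held for 2 of the 10 genes of the cluster and for 58.1% of 21900 protein-coding genes. The gelatinase gene Mmp2 had a fold enrichment of 9.44, 9.18, 6.67 and 10.6 there in P0 A, P0 B, P8 A and P8 B, and Mmp14, a membrane-bound activator of Mmp2, had 6.78, 7.52, 5.38 and 4.82. Mmp9, the other gelatinase, and Mmp21 had none in any library, and Mmp25 had one in 3 libraries. Of 50 shared sites within 10 kb of these genes, limma called 2 higher at P8, 1 each at Mmp2 and Mmp15, and 2 lower, 1 each at Mmp9 and Mmp16, where 6.20% and 3.74% of all shared sites were called. The neighbours of the cluster, Dcun1d5 on one side and Tmem123, Birc2 and Birc3 on the other, each had a gene-end peak in all 4 libraries, with a fold enrichment from 8.73 to 15.6.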

How the data were processed

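ATAC-seq libraries of P0 and P8 chondrocytes (2 each) were sequenced as paired-end reads, and the authors aligned them with Bowtie2 and called peaks with MACS2 at default settings in each library. The submitters' processing notes name mm10, whose chromosome positions are those of GRCm38. The values the authors deposited for a peak are a pileup (signal in tags at the summit, without scaling for depth), a fold enrichment over local background (a ratio), and a −log10 p-value and −log10 q-value. A further deposited table of the authors' DiffBind comparison holds log2 fold changes, p-values and FDR and was not used.

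Libraries were told apart by the prefix of the peak names, which gives no replicate number. Peaks overlapping by at least 1 bp were merged into sites. At the 55890 sites with a peak in all 4 libraries, log2 fold enrichment of each library's strongest peak was centred on the library median and compared with limma 3.58.1 with a mean trend (R 4.3.3), with Benjamini-Hochberg adjustment over these sites. On data simulated for this comparison over 55890 sites, 80% of log2 changes of 1 and 100% of changes of 2 were recovered, with 4 false calls. The called sites of the window differed by less than 1, so this recovery does not cover changes of their size. The simulated spread was drawn from limma's own fit, so the 4 false calls do not measure false calls in the real data. Gene positions and promoters came from RefSeq (GRCm38.p6), and letters were searched on both strands. Counts at gene ends took a peak within 1 kb of either end of a gene, also for genes with a listed promoter. They were used for the markers, the family genes outside the cluster, the neighbours and the protein-coding genes set beside them.

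The 10 genes, the lists and the alternatives were chosen with earlier results of these data known. All 10 genes are named. Sites were described singly if held in all 4 libraries or in both of one passage only, if called, or if highest in a library. Read totals were not used here, so depth is given as the peak caller's background. Python 3.11.15 with pandas 2.3.3 was used.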

Additional observations from a re-analysis of the deposited data

How the results depend on the processing

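The share of peaks in the window had a P0 to P8 ratio of 0.873, which was 0.931 without flanks and 0.734 with flanks of 100 kb, and from 0.852 to 0.896 with 1 library left out. The ratio of peak numbers was 1.09 to 1.37 with 1 library left out. Sites in all libraries numbered 11 to 14, P0-only sites 4 to 11 and P8-only sites 3 to 7 with 1 library left out. A fit with 1 library left out assumes that the lone library varies like the other passage, so only its differences are given.

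The number called higher was 0 in place of 2 without centring and with quantile normalization, and 1 with pileup over background without an added tag, centred or not, which was chosen after seeing the data. Over the genome these settings called 1.08%, 2.45%, 2.52% and 2.22% of shared sites higher, in place of 6.20%. The number called lower was 1 in place of 2 with quantile normalization, with pileup at the summit, with limma without trend, and without an added tag, centred or not. Over the genome these settings called 3.12%, 8.90%, 3.25%, 2.28% and 3.89% of shared sites lower, in place of 3.74%. Above the median pileup only 3 of the 11 sites were fitted, with 0 called higher and 1 lower; the sites called higher and the one at the end of Mmp12 were not among them, so this says nothing of those calls. Pileup at the summit called 3 sites higher, the added one being that 21.6 kb upstream of Mmp13 (log2 0.77, adjusted p = 0.0227). That setting called 13.8% of shared sites over the genome higher, in place of 6.20%. Without centring, P8 lay above P0 at 1 site in place of 4 (over the genome at 11.6% of sites in place of 34.1%) and below at 5 in place of 2 (49.9% in place of 21.5%).

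Over the alternatives that kept all 4 libraries, the adjusted p (limma) ran from 0.0011 to 0.139 at 19.1 kb upstream of Mmp13. At 10.7 kb it ran from 0.0029 to 0.0884. At Mmp12 it ran from 0.00047 to 0.259 upstream and from 0.0128 to 0.0620 at the end. Fits with 1 library left out are not among these p-values. No called site turned its direction under any alternative run. Of 113 values of single sites under alternatives, 99 kept their direction, and those that turned were of sites not called. Without centring these were −0.089 at the Mmp13 start, −0.24 at the site 331.7 kb from it, −0.091 at the first Mmp20 site and −0.040 beyond Mmp20. With pileup at the summit the strongest site had 0.015 and the second Mmp20 site 0.16, and without an added tag the site at 331.7 kb had −0.11 centred and −0.19 not centred, the Mmp13 start −0.069 and the site 21.6 kb upstream −0.00099. With 1 library left out the strongest site had −0.078 to 0.070, the site at 331.7 kb −0.12 to 0.18 and the second Mmp20 site −0.25 to 0.17. The cause was not tested.

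Starts with a peak in any library numbered 3 in place of 5 at matched depth, and starts with a peak in all 4 libraries 3 in place of 1 within 3 kb. No paired analysis was possible because the peak names carry no replicate number.

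With 2 libraries for each passage an exact test could not go below p = 0.333, and weak sites of 6 to 13 tags may pass in one library and miss in another.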
